A study of Mus musculus with 55 samples.

Results

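The genes described here encode the proteins of the mitochondrial ribosome and are picked out by their symbols. They are the 78 of 55421 genes in the count table whose symbol is Mrpl or Mrps followed by a number, with at most one letter after it. Of these, 51 belong to the large subunit, of which 30 have a homologue in bacteria and 21 are found in mitochondria only, and 26 belong to the small subunit, of which 16 have a bacterial homologue and 10 are specific to mitochondria. Mrps30 and Mrps18a carry a small-subunit name but sit in the large subunit and are counted there. The last gene, Mrps36, has a ribosomal name but is not a core protein of either subunit. All 78 passed the filter on low counts in each comparison.

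Mitochondria keep a small genome of their own, and the proteins it encodes, all of them subunits of the respiratory chain or of ATP synthase, are made on a separate ribosome inside the organelle. The RNA of that ribosome is transcribed from the mitochondrial genome, whereas each of its proteins is encoded in the nucleus, made in the cytosol and imported. In bone marrow, erythroid precursors depend on mitochondria for haem synthesis, and quiescent stem cells are known for low mitochondrial activity.

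Bulk RNA-seq was done on 6 populations sorted from the bone marrow of C57BL/6 mice, and the 46 libraries fall into 12 groups of 4, with 3 in each WT stem cell group. The mice labelled Tet2-/- were Tet2 f/f, Mx1-Cre animals given 5 doses of poly(I:C) from the age of 4 weeks and kept for 16 weeks after induction, and the other groups are labelled WT. The age and the interval are stated for the study's mice without setting WT apart; the allele of the WT mice, and whether they received poly(I:C), are not given in the sources used here. Mx1-Cre is driven by an interferon-inducible promoter that is not limited to blood cells. Cells were sorted as long-term and short-term haematopoietic stem cells (LT-HSC and ST-HSC, split by CD150), common myeloid (CMP), granulocyte-macrophage (GMP) and megakaryocyte-erythroid progenitors (MEP), split by CD34 and CD16/32, and common lymphoid progenitors (CLP), taken by CD127, with 200 cells per library in the sample labels. For the sorted cells the study's methods describe a modified Smart-seq2 amplification followed by a Vazyme library kit, while the labels name Vazyme kits for haematopoietic cells and Smart-seq2 for cells called pre-malignant, without saying which libraries these are. Whether the genotypes were prepared alike or together is not given in the sources used here, and its part in the differences between genotypes was not tested.

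Total counts ran from 50458473 to 102148079 per library, of which the 78 genes took 0.194% to 1.04%, or 126961 to 948392 counts. Values are CPM, counts scaled by TMM to a common library size. Called means an adjusted p under 0.05 in edgeR's quasi-likelihood test, with Benjamini-Hochberg adjustment over every gene in the fit; mean ± SD is given for groups and SE for log2 fold changes. Tet2 itself was not called lower in any population, with adjusted p from 0.372 to 1; the count covers exons outside the deleted part, so it does not check the label, and Tet2-/- below means labelled so. Summed markers were on average highest in the population they mark, except that CMP markers were highest in GMPs. CLPs also held B-cell transcripts: Ighm, the heavy chain of IgM, took 10.3% to 15.9% of the counts in WT and 0.0616% to 9.84% in Tet2-/- libraries, and Cd79a, which marks B-lineage cells, stood at 293 to 646 and 39.4 to 297 CPM. Fewer transcripts of a gene per cell and fewer cells that express it cannot be told apart in bulk RNA.

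The windows around the transcription start of 8 of the genes are shown because the results below turn on them: the first 6 were lower in Tet2-/- progenitors and the last 2 were higher in Tet2-/- CMPs. Mrps34 and Mrps35, also lower, had no matched window, and those of Mrpl18 and Mrpl51, also higher, are not printed. Each runs from 100 bases before to 30 bases after the RefSeq start on GRCm38.p6, 5′ to 3′ on the strand of the gene. For Mrps24 the RefSeq start lies inside the annotated gene given below, 7979 bases from its annotated start. For the other printed genes the 2 starts lie 0 to 29 bases apart. Capitals mark GGGCGG or CCGCCC, the letters of an SP1 site, and CCGGAAG or CTTCCGG, those of an ETS site.
Mrps24, minus strand, chr11:5707672-5707801: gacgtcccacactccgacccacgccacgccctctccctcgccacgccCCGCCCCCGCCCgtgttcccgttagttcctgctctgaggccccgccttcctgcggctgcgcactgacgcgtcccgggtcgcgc
Mrps26, plus strand, chr2:130563657-130563786: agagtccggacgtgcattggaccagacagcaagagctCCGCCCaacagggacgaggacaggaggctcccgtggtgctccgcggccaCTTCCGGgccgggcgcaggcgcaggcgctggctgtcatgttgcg
Mrps30, minus strand, chr13:118387223-118387352: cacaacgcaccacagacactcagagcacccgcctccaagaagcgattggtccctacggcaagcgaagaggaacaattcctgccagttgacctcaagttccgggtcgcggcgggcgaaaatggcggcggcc
Mrpl3, plus strand, chr9:105053168-105053297: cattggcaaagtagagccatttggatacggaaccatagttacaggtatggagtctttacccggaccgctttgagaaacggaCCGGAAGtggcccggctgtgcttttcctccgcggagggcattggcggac
Mrps15, plus strand, chr4:126046828-126046957: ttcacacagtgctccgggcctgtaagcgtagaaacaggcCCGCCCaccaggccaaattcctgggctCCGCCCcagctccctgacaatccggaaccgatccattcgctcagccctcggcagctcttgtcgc
Mrpl57, plus strand, chr14:57826139-57826268: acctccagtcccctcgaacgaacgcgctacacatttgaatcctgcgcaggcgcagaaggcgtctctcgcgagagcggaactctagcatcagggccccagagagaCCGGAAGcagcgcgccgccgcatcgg
Mrpl50, minus strand, chr4:49521054-49521183: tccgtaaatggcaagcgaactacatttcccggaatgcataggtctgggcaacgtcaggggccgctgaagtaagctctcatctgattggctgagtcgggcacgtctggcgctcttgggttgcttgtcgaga
Mrpl52, plus strand, chr14:54426809-54426938: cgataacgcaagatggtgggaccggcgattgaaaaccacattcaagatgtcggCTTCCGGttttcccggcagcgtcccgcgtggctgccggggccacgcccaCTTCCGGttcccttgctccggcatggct

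The search for motifs used longer RefSeq windows than those printed, of 300 bases, from 250 before to 50 after the start, and 69 of the 78 genes were matched. On either strand, CCGGAAG was in 24 of the 69 (34.8%), against 9.12% of 27025 windows of that length, and AAGATGGCG, the letters of a YY1 site, in 8 (11.6% against 1.5%). GGGCGG was in 34 windows (49.3% against 35.9%), while TATAAA was in 4 (5.80% against 14.2%). For the 69 genes the window nearest the annotated gene start was taken. For all other genes it was the first one listed, whether or not the gene is expressed here, so the shares are not like for like. These matches describe the letters only. No factor was measured at these promoters.

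Per kilobase of exon the genes spanned a 31.3-fold range, with a mean over the 46 libraries of 4.38 to 137 CPM per kb and a median of 30.8. The highest were Mrpl34 (137 CPM per kb) and Mrpl36 (132), small proteins of the large subunit with bacterial homologues, then Mrpl18 (127), Mrps28 (124) and Mrpl12 (105), the protein of the stalk that carries translation factors to the ribosome. The lowest were Mrps10 (8.35), Mrpl3 (6.58), Mrps5 (5.5), Mrps35 (4.93) and Mrps30 (4.38). The length used was the union of all annotated exons, which lowers the value of genes with long, rarely used exons: it was 607 bases for Mrpl34 and 8631 for Mrps35. Mrpl23, Mrpl48 and Mrps36 have annotated pseudogene copies, between which reads may be split. Detection was near complete, with 0 to 2 of the 78 genes at 0 counts in a library.

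The first question was how the 6 populations differ. MEPs held the most transcripts of these genes and CLPs the fewest, in both genotypes. Summed over the 78 genes, the WT MEP libraries held 10560, 9853, 9674 and 10350 CPM, and the WT CLP libraries 4025, 3404, 3992 and 3717. The WT LT-HSC libraries held 6058, 5785 and 7025 CPM, ST-HSC 5561, 5193 and 5778, CMP 6838, 5484, 6270 and 6483, and GMP 5723, 5358, 5759 and 5492. Every WT MEP library thus lay above, and every WT CLP library below, all WT libraries of the other 4 populations, which spanned 5193 to 7025. In Tet2-/- the MEP libraries again lay above all others, while the highest CLP library, at 4865, lay within the range of the stem cells. By group mean, MEP was the highest population for 64 of 78 genes in WT and 63 in Tet2-/-, and CLP the lowest for 53 and 54. For the median gene the highest population held 3.10 times the level of the lowest in WT and 3.19 times in Tet2-/-. CLP libraries also stood apart in other measures. Genes detected numbered 13791 to 15298 in WT and 13754 to 16903 in Tet2-/- CLPs, against 17586 to 20964 in the other groups. TMM factors ran from 0.5155 to 0.7132 in WT and from 0.740 to 1.08 in Tet2-/- CLPs, against 0.946 to 1.19 elsewhere. Their part in the low CLP level was not tested.

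**Figure D1:**
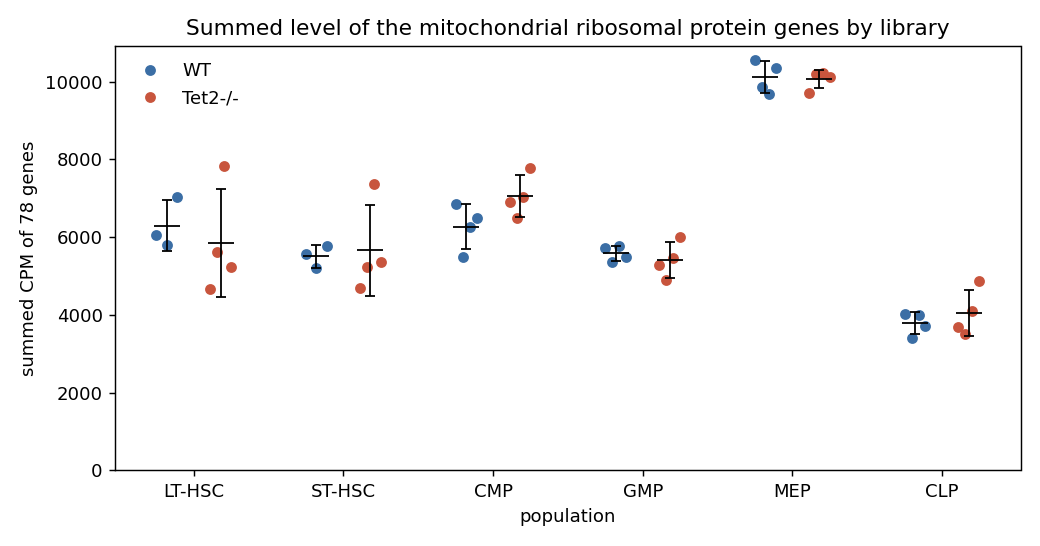
Summed CPM of the 78 genes in each of 46 libraries (y axis) by population (x axis), WT in blue and Tet2-/- in red, with the mean (horizontal line) and SD (bars) of each group. The 8 MEP libraries sit between 9674 and 10560 and the 8 CLP libraries between 3404 and 4865, and the genotypes overlap in every population.

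A test of any difference among the 6 populations called 67 of the 78 genes in WT (85.9%), against 42.0% of the 22360 genes tested, and 68 in Tet2-/- (87.2%, against 44.4%). The smallest p in WT belonged to Mrps26 (adjusted p = 5.52e-13) and Mrps34 (4.2e-10), both specific to mitochondria and described further below. They were followed by Mrpl22 (7.8e-10), Mrpl12 (4.01e-09), Mrpl23 (6.95e-09), Mrpl41 (8.16e-09), Mrps15 (5.06e-08) and Mrps28 (6.49e-08). Mrpl22, which lines the exit tunnel of the large subunit, stood at 163, 156, 115 and 138 CPM in WT MEPs and at 23.9, 25.4, 10.2 and 8.71 in WT CLPs, with 55.8 ± 7.74 (n = 4) to 81.7 ± 11.7 CPM (n = 3) in the other 4 populations. MEP and CLP therefore stood apart for Mrpl22. Mrpl12 ran from 72.7 ± 7.69 CPM in CLPs (n = 4) to 329 ± 22.5 in MEPs (n = 4). The genes with the largest p were Mrpl58 (adjusted p = 0.491), a peptidyl-tRNA hydrolase built into the ribosome, Mrps31 (0.549), Mrpl39 (0.569) and Mrpl53 (0.664), and Mrpl53 was low and scattered, at 0.302 CPM in 1 WT CLP library against a group mean of 14.4 ± 19.3 (n = 4).

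**Figure D2:**
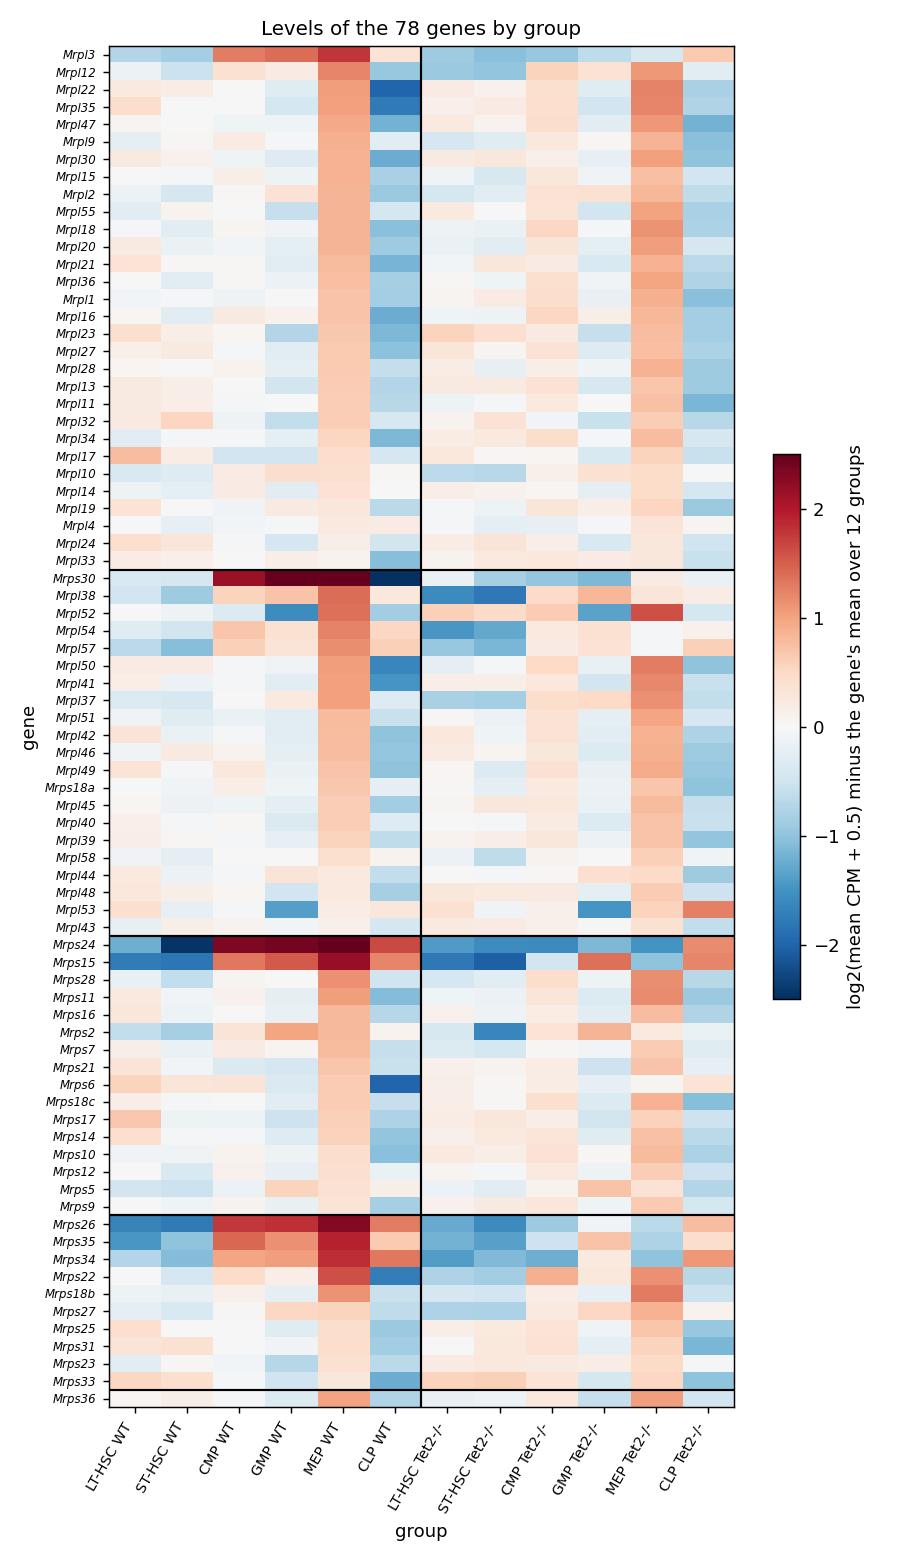
Level of each of the 78 genes (rows, ordered by subunit class and separated by black lines) in each of the 12 groups (columns), as log2 of the mean CPM + 0.5 minus the mean of that gene over the 12 groups. The MEP columns are red and the CLP columns blue for most genes, and Mrps24, Mrps26, Mrps30 and Mrpl3 are red in WT CMPs, GMPs and MEPs and blue or pale in the Tet2-/- columns of these populations.

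Step by step in WT, MEPs differed from CMPs the most evenly. All 78 genes had a log2 fold change above 0 (43.3% of all genes did), with a median of 0.64 against -0.02 for all genes, and 24 were called higher (30.8%; 6.35% of all genes were called in either direction, 1.95% higher and 4.4% lower) and 0 lower. The largest called changes were those of Mrpl52 (1.73 ± 0.38 SE, adjusted p = 0.00229), Mrpl41 (1.08 ± 0.24, adjusted p = 0.00235) and Mrps28 (1.07 ± 0.21, adjusted p = 0.000769). Mrpl52 held 145, 148, 256 and 278 CPM in WT MEPs and 55.6, 45.6, 66.7 and 81.9 in WT CMPs, with no overlap. Of the 78 genes, 58 did not overlap between these groups, against 24.2% of all genes. The count of calls was 12 without CMP WT replicate 3, and 15 without CMP WT replicate 4 or MEP WT replicate 2, while it was 57 when the fit held these 2 groups alone and 61 with DESeq2. In Tet2-/- libraries the same step had 71 of 78 genes above 0 (41.9% of all genes), a median of 0.46 and 9 called higher (4.36% of all genes called), among them Mrps18b (1.11 ± 0.26, adjusted p = 0.00591), Mrpl41 (0.94 ± 0.24, adjusted p = 0.0116) and Mrpl30 (0.89 ± 0.22, adjusted p = 0.0116). That count was 18 with a correction for GC content, described below, 4 with no filter, and 2 to 5 without CMP Tet2-/- replicate 2, 3 or 4 or MEP Tet2-/- replicate 3, 4 or 5. Summed MEP markers were higher in Tet2-/- than in WT CMPs, as given below, and their part in this step was not tested.

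CLPs lay below ST-HSCs for most of the genes. In WT, 34 were called lower and 7 higher (22.4% of all genes called, 13.9% lower and 8.45% higher). The 41 calls became 15 when the 2 groups were fitted alone and 25 with DESeq2, of which 23 were shared with the 41. Of the 78 genes, 19 lay above 0 (40.9% of all genes did), with a median log2 fold change of -0.68. The largest called rises were those of Mrps24 (4.5 ± 0.76 SE, adjusted p = 2.87e-05), Mrps26 (3.14 ± 0.34, adjusted p = 1.07e-08) and Mrps15 (3.1 ± 0.53, adjusted p = 2.87e-05). Among those lower was Mrpl22 (-2.21 ± 0.27 SE, adjusted p = 9e-08). Mrps30 fell by 3.66 ± 0.92 (adjusted p = 0.00313) and Mrps6 by 2.35 ± 0.71 (adjusted p = 0.0136). Both calls were lost with the 2 groups fitted alone (edgeR adjusted p = 0.11 and 0.406), and that of Mrps6 with DESeq2 (0.321). In Tet2-/- libraries 32 were called lower and 11 higher (22.5% of all genes called), led by Mrps33 (-1.60 ± 0.21), Mrpl30 (-1.31 ± 0.23) and Mrpl47 (-1.27 ± 0.32) among the lower ones, and the 43 became 27 without ST-HSC Tet2-/- replicate 4 and also 27 with the GC correction. The B-cell transcripts named above moved with this comparison, since Ighm alone stood at 144900 to 277500 CPM in WT CLPs and at 52.6 to 66.8 in WT ST-HSCs, and their part in it was not tested. The number of genes detected and, on average, the TMM factors were also lower in CLPs, as given above, and their part was not tested.

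Fewer genes were called between the stem cells and between GMPs and CMPs. Between WT LT-HSCs and ST-HSCs edgeR called 0 of the 78 genes (0.0939% of all genes), with 3 at an unadjusted p under 0.05 and 0 by DESeq2, although 64 of 78 had a log2 fold change above 0 (47.1% of all genes did), with a median of 0.15. Between WT GMPs and CMPs 1 gene was called (2.63% of all genes, 0.953% higher and 1.67% lower), Mrpl23, a protein near the exit of the tunnel, which fell by 0.77 ± 0.19 SE (adjusted p = 0.0192) from 126 ± 4.68 to 73.6 ± 7.53 CPM (n = 4 each). The median was -0.22, with 20 of 78 genes above 0 (48.7% of all genes). The count was 0 without CMP WT replicate 2, GMP WT replicate 3 or GMP WT replicate 5, and 2 without any one of the 4 CLP WT libraries; Mrpl23 was lost in 4 of 22 such cases. It was 12 when the 2 groups were fitted alone and 21 with DESeq2. In Tet2-/- libraries Mrpl23 fell again (-0.80 ± 0.19, adjusted p = 0.00902), with Mrpl13, Mrpl52, Mrps33 and Mrps36, while Mrps15 and Mrps34 rose (7 called, against 5.37% of all genes). Mrps36 was lost in 6 of 24 cases of 1 library left out. The 7 became 24 with the GC correction and 4 without CMP Tet2-/- replicate 5, GMP Tet2-/- replicate 3 or GMP Tet2-/- replicate 4.

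Between WT CMPs and ST-HSCs 8 genes were called higher (10.3%; 3.41% of all genes called, 2.42% higher and 0.988% lower) and 0 lower. They were Mrps24 (log2 fold change 5.21 ± 0.79 SE, adjusted p = 4.27e-05), Mrps26 (3.63 ± 0.35, adjusted p = 8.86e-09), Mrps15 (3.21 ± 0.53, adjusted p = 0.000139), Mrps34, Mrps35, Mrpl3, Mrpl57 and Mrpl12. All but Mrpl12 return below among the genes lower in Tet2-/- progenitors. Both comparisons use the WT CMP libraries. The 8 calls became 14 when these 2 groups were fitted alone and 23 with DESeq2. With the GC correction 8 were called, 6 of them shared, and Mrpl12 and Mrpl57 were lost. Over the whole family 48 of 78 genes lay above 0 (46.9% of all genes did), and the median was 0.12. In Tet2-/- libraries this step called 10 genes higher (4.70% of all genes), with Mrpl38 (2.34 ± 0.46, adjusted p = 0.00152), Mrps2 (2.02 ± 0.62, adjusted p = 0.0496) and Mrps15 (1.64 ± 0.44, adjusted p = 0.0232) changing the most. Mrps2 was lost in 21 of 24 cases of 1 library left out, with a replicate block (edgeR adjusted p = 0.0774), with the GC correction (0.0773), with no filter, with RLE scaling and without the mitochondrial genome. Mrps15 was lost in 3 of 24 and with the GC correction (0.0509). The count of 10 became 3 with that correction and 4 with RLE scaling or no filter. It was 3 to 6 without ST-HSC Tet2-/- replicate 2, 3 or 5 or any one CMP Tet2-/- library.

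The second question was what the loss of Tet2 changed in each population. In the 3 myeloid progenitor populations a small set of these genes fell several-fold, while the median of the family lay within 0.21 of 0 on the log2 scale. In CMPs 11 of 78 were called (14.1%, against 6.89% of the 16047 genes tested), 7 lower and 4 higher (5.18% and 1.71% of all genes); the 7 lower ones were also at least 2-fold apart (4.57% of all genes were called at 2-fold). The 11 became 19 with DESeq2 (8 lower and 11 higher) and 7, all lower, with all 46 libraries in one fit or without CMP WT replicate 3, CMP WT replicate 4 or CMP Tet2-/- replicate 4. In GMPs 5 were called, all lower (6.41%, against 6.56% of all genes and 5.49% lower), a share near that of all genes. In MEPs 8 were called, all lower (10.3%, against 5.66% and 5.01% lower). The median of the 78 was 0.21 in CMPs, -0.01 in GMPs and 0.11 in MEPs, against 0.03, 0.03 and 0.05 for all genes, and 63, 34 and 56 of the 78 lay above 0, or 80.8%, 43.6% and 71.8%, against 52.0%, 52.9% and 54.2% of all genes. Summed MEP markers were also higher in Tet2-/- than in WT CMPs, with values given below, and their part in the CMP median was not tested. WT and Tet2-/- libraries did not overlap for 21 of the 78 genes in CMPs (15.8% of all genes), 7 in GMPs (13.3%) and 19 in MEPs (13.0%). Mitochondrial RNA was also higher on average in Tet2-/- libraries, and not in these populations alone: transcripts of the organelle's own genes made up 5.94% to 6.57% of all counts in WT and 7.85% to 8.37% in Tet2-/- CMPs, 3.64% to 4.60% and 4.74% to 5.09% in GMPs, and 6.85% to 9.18% and 8.96% to 9.74% in MEPs, where they overlap. The shares were 8.73% to 9.02% and 10.01% to 13.1% in ST-HSCs. They overlapped in LT-HSCs, at 8.02% to 9.50% and 8.82% to 14.5%, and in CLPs, at 2.41% to 4.58% and 3.11% to 12.5%. The RNA of the small subunit, mt-Rnr1, averaged 917 ± 234 and 2181 ± 371 CPM in CMPs, 556 ± 75.4 and 1037 ± 89.6 in GMPs and 1219 ± 310.0 and 2415 ± 424.5 in MEPs (n = 4 each). It went from 2303 ± 282 (n = 3) to 7331 ± 3841 (n = 4) in LT-HSCs, from 2118 ± 554 (n = 3) to 6833 ± 1466 (n = 4) in ST-HSCs, and from 586 ± 164 to 1895 ± 1777 in CLPs (n = 4 each), populations in which edgeR called no gene of the family between genotypes. The CLP libraries overlapped for mt-Rnr1, at 404.6 to 780.6 CPM in WT and 604.5 to 4522 in Tet2-/-. The RNA of the large subunit, mt-Rnr2, averaged 12690 ± 2970 CPM in WT and 21750 ± 2795 in Tet2-/- CMPs (n = 4 each). It went from 11690 ± 2787 to 16000 ± 2339 in GMPs, where libraries overlapped, and from 18090 ± 2426 to 25850 ± 2682 in MEPs. Its means went from 19710 to 42870 in LT-HSCs, from 19350 to 46080 in ST-HSCs and from 11580 to 21080 in CLPs, where libraries overlapped. With the mitochondrial genome left out before scaling, 10, 5 and 8 genes of the family were called, 7, 5 and 8 of them lower.

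**Figure D3:**
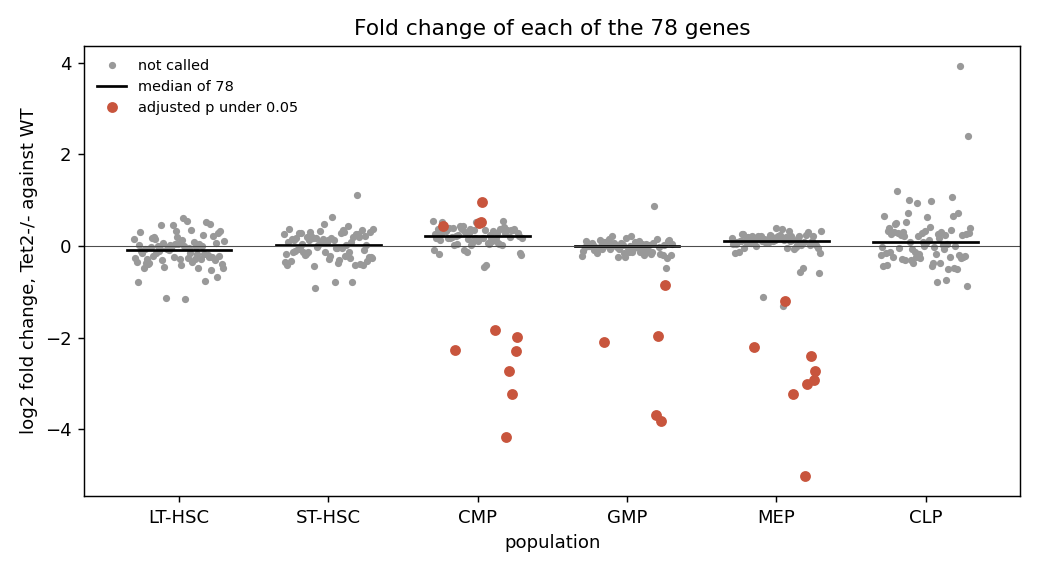
Log2 fold change of each of the 78 genes, Tet2-/- against WT (y axis), in the 6 populations (x axis), with called genes in red, all others in grey and the median of the 78 as a black line. The called genes lie between -5.02 and 0.97, and the medians between -0.08 and 0.21.

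Mrps24, a small-subunit protein with a bacterial homologue (uS3m), changed the most in CMPs and MEPs. In WT CMPs it stood at 84.3, 35.4, 48.2 and 43.1 CPM and in Tet2-/- CMPs at 4.48, 2.65, 3.24 and 1.55, which is -4.16 ± 0.40 SE on the log2 scale (adjusted p = 0.00027). In GMPs the values were 58.0, 69.1, 47.6 and 43.2 against 4.87, 3.15, 4.54 and 4.67 CPM (-3.69 ± 0.21, adjusted p = 3.16e-06). MEPs held 125, 134, 81.8 and 75.03 in WT and 4.92, 2.54, 2.46 and 2.96 in Tet2-/- (-5.02 ± 0.33, adjusted p = 3.55e-05). Every Tet2-/- library of these 3 populations lay below every WT library. In stem cells of both genotypes the gene was already low, with 6.08, 3.13 and 2.72 CPM in WT LT-HSCs, 4.12, 0.759, 1.51 and 7.34 in Tet2-/- LT-HSCs, and 0.360 to 7.37 in ST-HSCs. The annotated gene (ENSMUSG00000020477, chr11:5703983-5715680, minus strand, mm10) shares exon sequence with Urgcp on the same strand, so that reads of both genes may not be told apart.

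Mrps26 (ENSMUSG00000037740, chr2:130563742-130568695, plus strand) encodes a small-subunit protein specific to mitochondria. CMPs held 73.7, 51.5, 84.0 and 89.7 CPM in WT and 14.8, 9.62, 10.9 and 10.2 in Tet2-/- (log2 fold change -2.73 ± 0.22 SE, adjusted p = 0.000122). GMPs held 82.1, 72.7, 75.4 and 81.5 against 18.3, 21.6, 20.2 and 21.3 (-1.97 ± 0.12, adjusted p = 3.63e-06). MEPs held 99.5, 95.8, 120.3 and 118 against 16.1, 10.03, 11.4 and 16.2 (-3.01 ± 0.20, adjusted p = 3.7e-05). The WT and Tet2-/- libraries did not overlap in any of the 3, and the log2 fold change was smallest in GMPs. LT-HSCs stood at 6.42 ± 1.89 (WT, n = 3) and 8.76 ± 4.14 CPM (Tet2-/-, n = 4) and ST-HSCs at 6.03 ± 0.43 and 6.82 ± 2.32, below the lowest CMP, GMP and MEP group means of either genotype. Its exons overlap those of 4930473A02Rik on the other strand.

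Mrps30 (ENSMUSG00000021731, chr13:118378381-118387252, minus strand), a large-subunit protein despite its name, held 74.0, 61.7, 63.7 and 75.8 CPM in WT CMPs and 8.21, 9.42, 3.95 and 8.15 in Tet2-/- CMPs (log2 fold change -3.22 ± 0.27 SE, adjusted p = 0.000146). In GMPs it held 119, 112, 72.8 and 64.1 against 7.26, 8.24, 6.96 and 3.97 (-3.82 ± 0.29, adjusted p = 1.3e-05). In MEPs it held 84.8, 85.2, 87.5 and 107 against 22.1, 15.3, 14.1 and 17.5 (-2.41 ± 0.18, adjusted p = 6.06e-05; 0.200 when all 46 libraries were fitted together). The groups were again apart in all 3. CLPs were unlike the rest: 7 of the 8 libraries held 0.0652 to 3.38 CPM and 1 Tet2-/- library 46.2. Its exons overlap those of B430218F22Rik on the other strand.

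Mrpl3 (ENSMUSG00000032563, chr9:105053239-105079888, plus strand), a core large-subunit protein with a bacterial homologue, held 104, 64.1, 81.1 and 74.2 CPM in WT CMPs and 24.3, 17.9, 8.04 and 17.7 in Tet2-/- CMPs (log2 fold change -2.27 ± 0.31 SE, adjusted p = 0.00245). GMPs held 96.5, 106, 60.2 and 90.9 against 22.0, 19.0, 19.7 and 24.0 (-2.09 ± 0.17, adjusted p = 2.06e-05). MEPs held 129.8, 110.4, 109 and 112 against 30.02, 22.5, 14.9 and 32.6 (-2.21 ± 0.24, adjusted p = 0.000672). The 3 changes differed by less than the SE in CMPs, and no library of one genotype reached the range of the other. LT-HSCs of both genotypes, at 9.88 to 21.7 CPM, lay in the range of the Tet2-/- progenitors. Its exons overlap those of Gm38077 on the same strand and of Gm47106 on the other.

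Mrps34 (ENSMUSG00000038880, chr17:24895116-24897502, plus strand), a mitochondria-specific protein of the small subunit, was called in all 3 populations with unequal size. WT CMPs held 38.4, 30.2, 39.8 and 40.8 CPM and Tet2-/- CMPs 10.1, 9.03, 6.04 and 5.61 (log2 fold change -2.29 ± 0.23 SE, adjusted p = 0.00039). WT GMPs held 40.7, 36.9, 40.5 and 37.6 and Tet2-/- GMPs 18.5, 21.9, 23.2 and 24.4 (-0.86 ± 0.14, adjusted p = 0.00276; 0.192 when all 46 libraries were fitted together). WT MEPs held 67.5, 63.8, 68.1 and 70.1 and Tet2-/- MEPs 9.84, 10.4, 6.95 and 8.60 (-2.92 ± 0.16, adjusted p = 1.6e-05). The drop in GMPs was under 2-fold and the others were larger, without overlap in any. Its exons overlap those of Nme3 on the same strand and of Mapk8ip3 on the other.

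Mrps35 and Mrps15 were called lower by edgeR in CMPs and MEPs but not in GMPs, where DESeq2 called Mrps35. Mrps35 (ENSMUSG00000040112, chr6:147042764-147073991, plus strand), a small-subunit protein specific to mitochondria, held 85.5, 77.1, 89.8 and 79.4 CPM in WT CMPs and 31.7, 22.9, 13.8 and 15.7 in Tet2-/- CMPs (-1.99 ± 0.25 SE on the log2 scale, adjusted p = 0.00148). In MEPs it held 129.8, 109, 107 and 120.2 against 27.3, 9.57, 10.1 and 23.3 (-2.73 ± 0.36, adjusted p = 0.00194). Its GMP libraries held 63.8 to 72.3 CPM in WT and 39.7 to 58.4 in Tet2-/-, apart but much closer. Mrps15 (ENSMUSG00000028861, chr4:126046925-126055532, plus strand), with a bacterial homologue, held 73.3, 51.5, 79.1 and 86.9 CPM in WT CMPs and 34.8, 15.3, 12.1 and 20.5 in Tet2-/- CMPs (-1.83 ± 0.32, adjusted p = 0.00856). In MEPs it held 117, 98.2, 146 and 163 against 30.6, 7.36, 4.83 and 13.4 (-3.22 ± 0.54, adjusted p = 0.00725). Its GMP libraries overlapped, with 65.9 to 120.5 CPM in WT and 54.6 to 96.5 in Tet2-/-. Mrpl57 (ENSMUSG00000021967, chr14:57826234-57829296, plus strand), specific to the mitochondrial large subunit, was called in MEPs alone, with 116, 115, 156 and 138 CPM in WT and 92.0, 42.5, 40.5 and 54.8 in Tet2-/- (-1.2 ± 0.26, adjusted p = 0.028). This call was lost when any one MEP library other than Tet2-/- replicate 2 was left out, with all 46 libraries in one fit (edgeR adjusted p = 0.0748), with a replicate block (0.0609) and with a correction for GC content (0.0523).

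**Figure D4:**
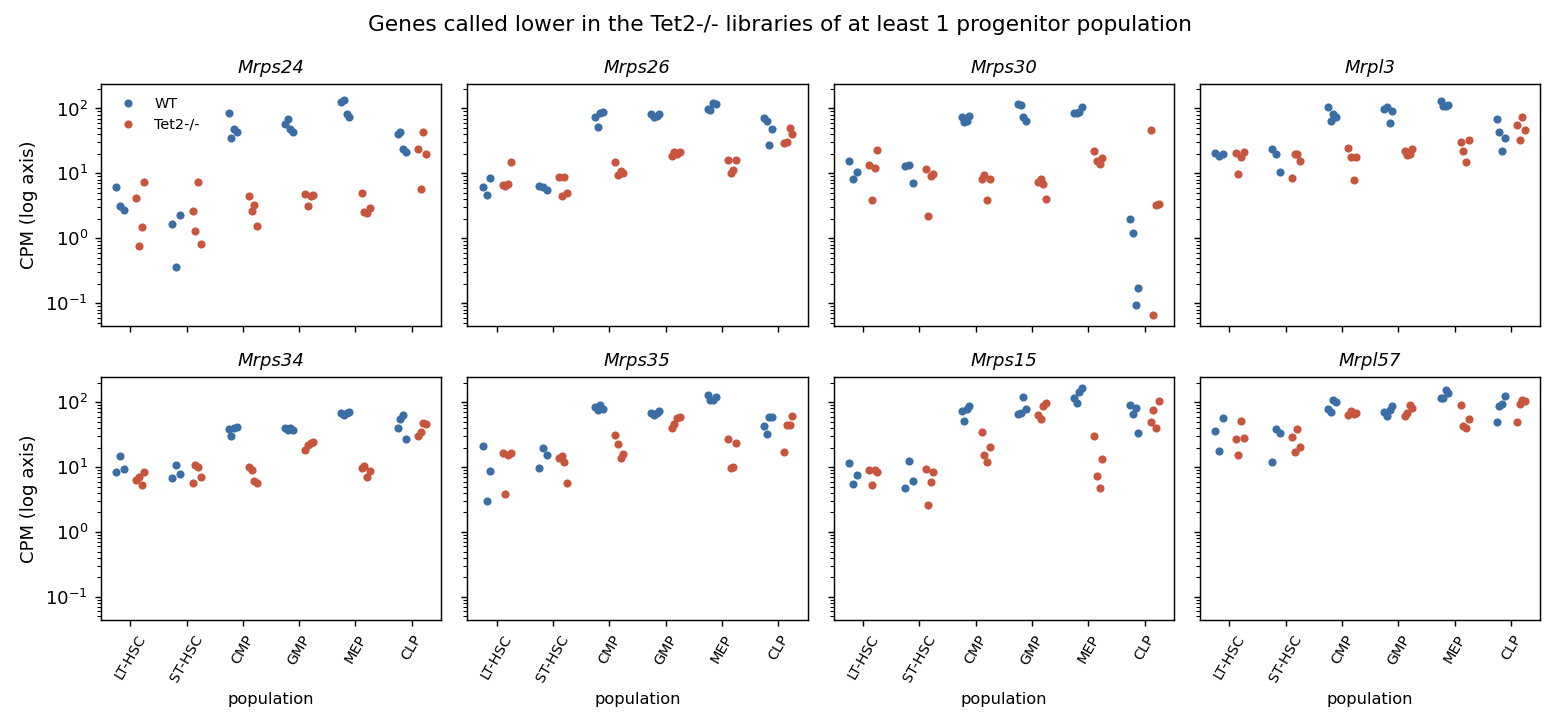
CPM (log axis) of the 8 genes called lower in Tet2-/- libraries of at least 1 population, one panel per gene, with each library as a point (WT in blue, Tet2-/- in red) and populations on the x axis. In CMPs and MEPs the red points of Mrps24, Mrps26, Mrps30, Mrpl3, Mrps34, Mrps35 and Mrps15 lie below all blue points, in LT-HSCs and ST-HSCs the colours overlap at low values, and Mrps30 falls to 0.0652 CPM in 1 CLP library.

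Across the 3 populations, 5 of the 78 genes (6.41%) were called lower in each of CMPs, GMPs and MEPs, against 351 of the 13911 genes tested in all 3 (2.52%), and 8 genes of any kind were called higher in all 3. Summed over the 8 genes lower in at least 1 population, the level went from 559 ± 78.5 to 156 ± 28.7 CPM in CMPs, from 576 ± 21.3 to 275 ± 41.4 in GMPs and from 865 ± 38.6 to 157 ± 57.6 in MEPs (n = 4 each). These sums follow from the choice of the 8. The remaining 70 genes summed to 5709 ± 499 and 6889 ± 548 CPM in WT and Tet2-/- CMPs, 5007 ± 193 and 5139 ± 435 in GMPs and 9244 ± 398.5 and 9902 ± 289 in MEPs. Every gene called lower is left out of the 70, so these sums depend on the same choice. The ratio of large-subunit to small-subunit CPM, which takes in all members, ran from 2.27 to 2.36 in WT and from 2.55 to 2.75 in Tet2-/- CMPs, from 2.31 to 2.43 and from 2.67 to 2.94 in MEPs, and from 2.26 to 2.34 and from 2.30 to 2.52 in GMPs. The ratio was thus higher in every Tet2-/- library in CMPs and MEPs and overlapped in GMPs. It includes the 8 lowered genes, and their part in it was not tested. Called lower were 5 small-subunit genes in CMPs and 5 in MEPs, against 2 and 3 of the large subunit. In ST-HSCs the mean ratio lay the other way but the libraries overlapped, from 2.68 to 2.87 in WT and from 2.43 to 2.69 in Tet2-/-. The ratio overlapped as well in LT-HSCs (2.46 to 2.61 and 2.45 to 2.80) and CLPs (2.12 to 2.43 and 2.14 to 2.52).

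The same genes were set beside the other populations. The mean of log2 CPM over the 5 genes called lower in all 3 populations was 5.90, 6.05 and 6.57 in WT CMPs, GMPs and MEPs and 3.04, 3.67 and 3.52 in the Tet2-/- ones, a direction that the choice of the 5 fixes. It was 3.24 and 3.05 in WT and Tet2-/- LT-HSCs, 2.85 in ST-HSCs of both genotypes, and 4.32 and 4.52 in WT and Tet2-/- CLPs. Tet2-/- CMPs thus lay among the stem cell means, and Tet2-/- GMPs and MEPs above them. For the other 346 genes called lower in all 3, of any function, the mean was 5.90, 6.04 and 5.92 in WT progenitors, 3.99, 4.2 and 3.89 in Tet2-/- progenitors, 3.84 to 4.04 in the 4 stem cell groups, and 4.97 and 4.81 in WT and Tet2-/- CLPs. Summed over the 8 lowered genes, the stem cell groups averaged 86.9 to 108 CPM. Mrps15 stood at 2.58 to 12.5 CPM in the stem cell libraries, below every GMP library of either genotype.

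GC content at the start of the transcript was higher in the lowered genes. The 8 lowered genes had a median GC of 69.8% over the first 200 bases (60.8% to 75.5%), and the other 70 had 60.2% (42.5% to 72.0%). Only genes averaging above 5 CPM in the fit of a population entered the correlations with GC content. Across genes, which are not independent and share libraries, the correlation of the log2 fold change with this GC content was -0.50 in CMPs (n = 78), -0.37 in GMPs (n = 77) and -0.51 in MEPs (n = 78), against -0.26, -0.21 and -0.23 over all genes above that level (n = 10146, 10086 and 9198). Without the 8 lowered genes it was -0.40, 0.12 and -0.43. It was -0.34 in ST-HSCs, where no gene was called, with or without the 8, and -0.04 in LT-HSCs and 0.06 in CLPs. With a correction for this GC content, added after seeing the data, the calls were 13 in CMPs, 10 of them shared with the 11, the same 5 in GMPs and 7 of the 8 in MEPs, so that the lowered genes other than Mrpl57 remained called. Of the lowered genes 3 of 8 share exon sequence with another gene on the same strand, as do 5 of the other 70, and on either strand, since the use of strand in counting is not known, 5 of 8 and 28 of 70 do. These 5 are the genes called lower in all 3 populations. In the promoter windows printed above the ranges overlap: the 6 lowered genes had 74.6% GC (Mrps24), 69.2% (Mrps26), 64.6% (Mrpl57), 63.1% (Mrps15), 61.5% (Mrps30) and 55.4% (Mrpl3), and the raised Mrpl52 and Mrpl50 had 63.1% and 55.4%.

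**Figure D5:**
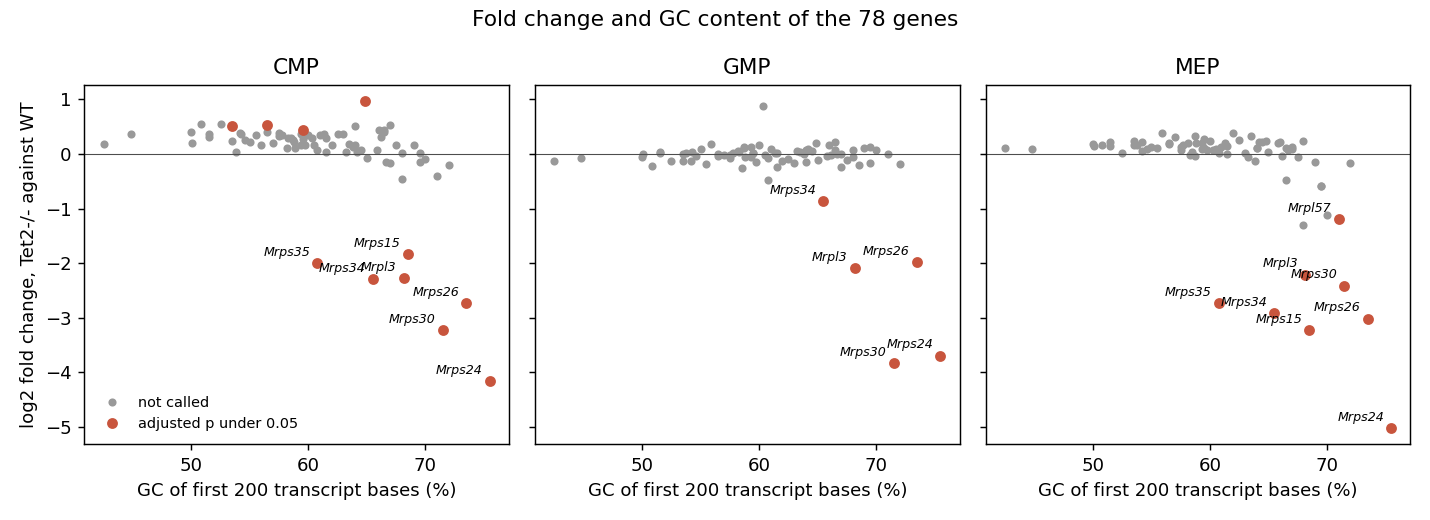
Log2 fold change of the 78 genes, Tet2-/- against WT (y axis), against the GC content of the first 200 transcript bases in percent (x axis) in CMPs, GMPs and MEPs, with called genes in red and the lowered ones named. The lowered genes lie from 60.8% to 75.5% GC, and many genes of the same GC content lie near 0.

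Higher in Tet2-/- CMPs were 4 genes, all of the large subunit, of which Mrpl50, Mrpl51 and Mrpl52 are specific to mitochondria. Mrpl18, a protein with a bacterial homologue that is also known to help import 5S rRNA, held 194, 159, 157 and 172 CPM in WT and 231, 222, 230.5 and 248 in Tet2-/- (log2 fold change 0.44 ± 0.10 SE, adjusted p = 0.0277). Mrpl51 held 144, 120.3, 111 and 124 against 179, 161, 175 and 210.3 (0.53 ± 0.12, adjusted p = 0.0293), and Mrpl50 92.3, 94.3, 74.1 and 84.8 against 113, 143, 109 and 133 (0.51 ± 0.13, adjusted p = 0.0478). Mrpl52 changed the most, from 55.6, 45.6, 66.7 and 81.9 to 88.4, 105, 122 and 177 (0.97 ± 0.25, adjusted p = 0.0488). None of the 4 overlapped between genotypes. Each was lost as a call when all 46 libraries were fitted together, Mrpl18, Mrpl50 and Mrpl51 with a replicate block, Mrpl50 and Mrpl52 with no filter, and Mrpl50 also with the GC correction and without the mitochondrial genome. Leaving out 1 library lost Mrpl50 in 8 of 8 cases and Mrpl18, Mrpl51 and Mrpl52 in 6 of 8 each, and without CMP WT replicate 3, CMP WT replicate 4 or CMP Tet2-/- replicate 4 no gene was called higher and 7 lower. MEP markers moved with these rises, at a summed 594 to 1605 CPM over 6 genes in WT CMPs and 2790 to 5633 in Tet2-/- CMPs, with none of the 6 at 0, and their part in them was not tested.

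With the 2 groups of each population fitted alone, edgeR called no gene of the family in stem cells or CLPs, while other fits called 1 and 4 in CLPs, named below. In LT-HSCs edgeR called 0 (0.0245% of all genes), with 4 at an unadjusted p under 0.05 and 0 by DESeq2. The smallest p in each direction belonged to Mrpl38 (log2 fold change -1.14 ± 0.43 SE, edgeR adjusted p = 0.821), Mrpl12 (-0.77 ± 0.32, 0.91) and Mrps7 (-0.48 ± 0.21, 0.96), and to Mrpl43 (0.46 ± 0.24, 0.998), Mrpl55 (0.55 ± 0.30, 0.998) and Mrpl46 (0.32 ± 0.21, 0.998). Of these Mrps7 alone did not overlap, at 65.8 ± 12.4 (n = 4) against 93.1 ± 2.66 CPM (n = 3; two-sided exact permutation p = 0.0571). Over the whole family 2 of the 78 genes did not overlap, against 7.08% of all genes. The median was -0.08. In ST-HSCs edgeR called 0 (0.0185%), with 0 at an unadjusted p under 0.05 and 0 by DESeq2, and the median was 0.03. Mrpl45 (0.47 ± 0.21), Mrps9 (0.37 ± 0.18), Mrps17 (0.44 ± 0.22), Mrps2 (-0.79 ± 0.37), Mrps7 (-0.26 ± 0.19) and Mrpl38 (-0.91 ± 0.64) had the smallest p there, with edgeR adjusted p from 0.818 to 0.999. In ST-HSCs 1 of the 78 genes, Mrps9, did not overlap, against 8.14% of all genes.

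In CLPs edgeR called 0 (0.00766% of all genes), with 1 at an unadjusted p under 0.05 and 1 by DESeq2, in both cases Mrpl12. It held 77.9, 65.7, 80.7 and 66.6 CPM in WT and 129.7, 91.1, 132 and 104 in Tet2-/- CLPs (log2 fold change 0.66 ± 0.25 SE, adjusted p = 1 in edgeR), and an exact two-sided permutation gave p = 0.0286, the smallest possible for 4 against 4. Mrpl22 likewise did not overlap, at 23.9, 25.4, 10.2 and 8.71 against 43.4, 34.9, 31.9 and 46.2 CPM (1.2 ± 0.54, adjusted p = 1). Over the whole family 4 of the 78 genes did not overlap in CLPs, against 3.87% of all genes. When all 46 libraries were fitted together 4 genes were called higher in CLPs, Mrpl22, Mrpl41, Mrps30 and Mrps6, and the value of Mrps30 there rests on the 1 library at 46.2 CPM. The B-cell share and the TMM factors of these libraries differed as given above, and their part was not tested.

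An interaction of genotype and population in the fit of all 12 groups asked whether the effect of Tet2 differed among populations. It called 8 of the 78 genes (10.3%, against 2.65% of all genes): Mrps26 (adjusted p = 1.53e-07), Mrps34 (2.43e-06), Mrps24 (2.56e-05), Mrpl3 (0.000114), Mrps30 (0.000711), Mrps15 (0.00192), Mrps35 (0.00815) and Mrpl12 (0.0464). For the first 7 the effect was called in CMPs and MEPs as given above, and for Mrps26 it was -0.50 ± 0.42 in CLPs. Mrpl12 went from -0.77 in LT-HSCs to 0.66 in CLPs. For the other 70 genes a difference among populations was not called.

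The 3 paralogues of Mrps18 sit at different places in the ribosome: Mrps18b and Mrps18c in the small subunit and Mrps18a in the large one. Per kilobase Mrps18c held 68.6, Mrps18b 35.0 and Mrps18a 18.3 CPM per kb on average over the 46 libraries. All 3 were highest in MEPs, with 108 ± 10.03, 143 ± 30.5 and 104 ± 4.68 CPM in WT for c, b and a (n = 4), and differed among WT populations (adjusted p = 0.00413, 9.9e-06 and 0.0208). In CLPs the WT means were 46.5 ± 12.6, 44.6 ± 16.7 and 54.2 ± 18.4 CPM, less than the MEP values by more than the spread. None was called between genotypes by edgeR in any population, while DESeq2 called Mrps18c in CMPs. Their log2 fold changes in CMPs were 0.38 ± 0.13, 0.05 ± 0.17 and 0.07 ± 0.15 SE.

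Other genes of mitochondrial translation were described from 5 lists of 66 genes, of which 65 were matched. Tet2-/- against WT called 3 higher and 10 lower in CMPs, 0 and 11 in GMPs and 0 and 12 in MEPs, where 6.89%, 6.56% and 5.66% of all genes were called (5.18%, 5.49% and 5.01% lower), with no edgeR call in LT-HSCs, ST-HSCs or CLPs. Among the 23 assembly factors, Rbfa, which matures the small subunit, fell from 60.1 ± 11.2 to 7.31 ± 2.84 CPM in CMPs (log2 fold change -3.05 ± 0.29 SE, adjusted p = 0.00027; n = 4 each), and by 2.85 in GMPs and 2.55 in MEPs. Mpv17l2, an inner-membrane protein that takes part in assembly, fell from 33.3 ± 3.67 to 4.61 ± 0.50 CPM in CMPs (-2.86 ± 0.18, adjusted p = 2.89e-05), and by 3.57 in GMPs and 3.67 in MEPs. Malsu1 and Ddx28 were called lower in all 3 as well. Of the 23, 5 were lower in each population and 2 were higher in CMPs, with medians of 0.06, 0.04 and 0.03 and 13, 12 and 14 genes above 0. Of the 11 matched translation factors, Mtrf1l, a release factor, was called lower in all 3 (-1.86, -2.15 and -1.81), and of 5 other ribosome proteins Gadd45gip1 was lower in CMPs (-1.61 ± 0.22) and MEPs (-2.49 ± 0.36). Higher in CMPs were Fastkd2 (0.55 ± 0.12), which binds mitochondrial RNA, Tfb1m (0.84 ± 0.20), which methylates the small-subunit RNA, and Rars2 (0.52 ± 0.11), the arginyl-tRNA synthetase. Of the 17 mitochondrial aminoacyl-tRNA synthetases, which load amino acids onto tRNAs, Rars2 was the 1 called higher, while 2, 3 and 4 were lower in CMPs, GMPs and MEPs. Cars2 and Yars2, those for cysteine and tyrosine, were lower in all 3 (log2 fold changes of -1.83, -2.14 and -1.78 and of -1.29, -1.07 and -1.63), Iars2 in GMPs (-0.76), and Ears2 and Nars2 in MEPs (-1.30 and -1.24). The other genes of the lists called lower were Mrm1 in CMPs and MEPs (-1.85 and -0.91), Noa1 in GMPs (-2.56), Guf1 in GMPs (-0.82), Supv3l1 in CMPs and MEPs (-0.90 and -0.91) and Lrpprc in GMPs (-1.41).

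Beside 2 families of like size, the 77 cytosolic ribosomal protein genes and 74 nuclear genes of oxidative phosphorylation tested, no test of a difference between families was run. MEPs against CMPs in WT had 31 and 34 genes higher in those families, with medians of 0.48 and 0.68 (0.64 in the mitochondrial family). CLPs against ST-HSCs in WT had 68 and 23 lower, with medians of -1.12 and -0.34 (-0.68). Between genotypes 4 and 8 were higher and 2 and 4 lower in CMPs, 0 and 0 higher and 1 and 3 lower in GMPs, and 3 and 0 higher and 2 and 3 lower in MEPs, while the mitochondrial family had 4, 0 and 0 higher and 7, 5 and 8 lower. Of all genes 1.71%, 1.07% and 0.656% were higher and 5.18%, 5.49% and 5.01% lower.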

How the data were processed

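The 78 genes and the lists of other genes were chosen with earlier results of these data known. RNA of sorted cells, 200 per library by the labels though the study's methods give another number, was amplified and sequenced. The authors trimmed reads with Trim Galore (0.6.7 in the submitters' processing notes), mapped them with HISAT2 (7.5.0 in those notes) to mm10 and deposited raw counts per gene; mm9 is listed in the notes too, versions in the study's methods differ, and the counting program, its annotation and its use of strand are not given in the sources used here. Gene coordinates are those of mm10. A second deposited table, of other libraries, was not used here.

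The 46 columns were mapped to samples by name, and no pair was identical. The deposited counts were tested with edgeR 4.0.16 (filterByExpr, TMM, quasi-likelihood) in R 4.3.3: Tet2-/- against WT on the 2 groups of a population, and populations and the difference of effects in one fit of 12 groups. All genes were fitted and adjusted together by Benjamini-Hochberg, and a call is an adjusted p under 0.05. SE is the log2 fold change over the square root of F. Exact permutation tests used log2(CPM + 0.5). Level per kilobase used the union of exons. Motifs were searched as letters on both strands of RefSeq windows. The labels number the replicates without naming animals, so p-values measure the spread between these samples. Between genotypes same-number correlations were weak (-0.05 to 0.10), which cannot show whether the samples were paired. Across populations, Tet2-/- CMP and MEP alone had same-number correlations over 0.1 in every pair (0.12 to 0.19, 4 pairs). Same-number means exceeded those of unlike numbers for all pairs of populations except Tet2-/- LT-HSC and GMP. They ran from -0.01 there to 0.16 in Tet2-/- CMP and MEP. The fit of 12 groups treats the libraries as independent, and a replicate block is given below. Genes were named by rule: all called between genotypes (up to 8 per direction by p, otherwise the 3 of smallest p per direction), the 8 smallest and 4 largest p among populations, the 5 highest and lowest per kilobase, the 3 largest called changes per step and direction, the Mrps18 genes and Mrps30, and up to 3 called translation genes per direction and comparison; the other called translation genes were named after their values were seen. The steps were tested on simulated data. Alternatives were DESeq2 1.42.0, RLE scaling, no filter, other samples in the fit, no mitochondrial genome, a replicate block, leaving out each library and, chosen after seeing the data, a correction for GC content and leaving out genes of chromosomes X and Y. Plots used matplotlib 3.10.9, numpy 2.4.6, pandas 2.3.3 and scipy 1.17.1 in Python 3.11.15.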

Additional observations from a re-analysis of the deposited data

Results flagged for a closer look

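Among 360 groups of 4 libraries tested for a sample far from the others, over 36 measures, 23 had one, where chance gives about 1 in 20. In the summed level it was Tet2-/- MEP replicate 2, at 9711 CPM. In CMPs, GMPs and MEPs single values that stood apart included Mrpl22 at 81.4 CPM and Mrps17 at 97.4 in CMP WT replicate 2, Mrpl3 at 129.8 in MEP WT replicate 2, Mrpl38 at 40.5 in CMP WT replicate 3, Mrpl41 at 116 and Mrpl39 at 107.5 in MEP WT replicate 4, Mrps30 at 107 in MEP WT replicate 5, and Mrps9 at 88.2 in GMP Tet2-/- replicate 5. GMP WT replicate 4 stood apart for 3 genes, Mrpl50 (103 CPM), Mrpl51 (134) and Mrpl52 (40.1). Relative to the level, the widest gaps were in CLPs: Mrpl39 stood at 0.0652 CPM in Tet2-/- replicate 2 and from 52.0 to 59.8 in the other 3, and Mrps30 at 46.2 in Tet2-/- replicate 2 and from 0.0652 to 3.38 in the others. CLP libraries also stood apart for Mrpl39 (82.1 in WT replicate 3) and Mrpl55 (23.5 in WT replicate 3 and 12.6 in Tet2-/- replicate 4). Mrpl53 did so at 22.8 CPM in ST-HSC Tet2-/- replicate 5, 33.7 in CMP Tet2-/- replicate 5 and 33.3 in MEP WT replicate 3, where the other libraries of these groups held 4.58 to 8.76. In Tet2-/- LT-HSCs, Mrps15 stood at 5.27 in replicate 3 (8.52 to 9.07 in the others), Mrps35 at 3.91 in replicate 3 (15.6 to 16.4) and Mrps26 at 15.0 in replicate 5 (6.47 to 6.93).

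The effect of Tet2 differed among the 6 populations for 8 genes in edgeR's test of the difference: Mrps26 (adjusted p = 1.53e-07), Mrps34 (2.43e-06), Mrps24 (2.56e-05), Mrpl3 (0.000114), Mrps30 (0.000711), Mrps15 (0.00192), Mrps35 (0.00815) and Mrpl12 (0.0464).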

How the results depend on the processing

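No direction of a called value reversed, and the 6 medians between genotypes moved by less than the larger SD of their 2 groups in 48 runs with another setting and 46 that left out a library. Without a library the medians of ST-HSCs (-0.15 to 0.10), GMPs (-0.06 to 0.02) and CLPs (-0.08 to 0.15) changed sign; without Tet2-/- replicate 4 those of ST-HSCs (0.03 to -0.15) and LT-HSCs (-0.08 to -0.27) moved by more than the WT SD of 0.07 and 0.18. In CMPs the 11 calls between genotypes became 7 with all 46 libraries in one fit, 19 with DESeq2 and 7 at 2-fold, and in CLPs 0 became 4 in one fit and 1 with DESeq2. In WT, fitting the 2 groups alone gave 14 (CMP against ST-HSC, from 8), 15 (CLP against ST-HSC, from 41), 12 (GMP against CMP, from 1) and 57 (MEP against CMP, from 24), and DESeq2 gave 23, 25, 21 and 61. In Tet2-/- libraries CMP against ST-HSC went from 10 to 4 with no filter or RLE scaling and to 3 with the GC correction, CLP against ST-HSC from 43 to 27, GMP against CMP from 7 to 24 and MEP against CMP from 9 to 18 with that correction, and the last to 4 with no filter. The cause was not tested.

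Leaving out each library gave 7 to 10 calls in CMPs, 5 to 6 in GMPs, 7 to 11 in MEPs and 0 in LT-HSCs, ST-HSCs and CLPs. In WT it gave 60 to 67 for the 6 populations, 0 for LT-HSC against ST-HSC, 6 to 9 for CMP and 30 to 40 for CLP against ST-HSC, and 0 to 2 for GMP and 12 to 24 for MEP against CMP. In Tet2-/- it gave 65 to 72, 0 to 1, 3 to 12, 27 to 45, 4 to 10 and 2 to 11, and for the difference of effects 7 to 8. In the fit of 12 groups these runs kept the genes and trended dispersion of all 46 libraries. The 27 came without ST-HSC Tet2-/- replicate 4 and the 1 without CLP Tet2-/- replicate 2. In Tet2-/- the counts moved by over 1.5 times without ST-HSC replicate 2, 3 or 5 or any CMP library for CMP against ST-HSC, CMP replicate 5 or GMP replicate 3 or 4 for GMP against CMP, and CMP replicate 2, 3 or 4 or MEP replicate 3, 4 or 5 for MEP against CMP.

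Same-numbered WT and Tet2-/- libraries deviated together weakly, with correlations from -0.05 to 0.10. This cannot show whether the numbers pair the genotypes, and the labels do not say. A replicate block gave 8, 5 and 7 calls in CMPs, GMPs and MEPs, losing Mrpl18, Mrpl50, Mrpl51 and Mrpl57, and 0 in the other 3 populations. Across populations it gave 65 and 66 calls in WT and Tet2-/-, 2 for GMP against CMP in WT, 8 for the difference of effects, and in Tet2-/- 8 for CMP against ST-HSC (losing Mrpl10 and Mrps2), 10 for GMP against CMP and 9 for MEP against CMP, where 8 were shared, Mrpl32 was lost and Mrpl21 gained.

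With at least 126961 counts of the family per library, depth bears most on genes with few counts, such as Mrps24 in stem cells and Mrps30 in CLPs.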

Other observations

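The summed level spread more widely in Tet2-/- than in WT stem cells, with an SD of 1389 CPM (n = 4) against 652 (n = 3) in LT-HSCs and 1168 against 296 in ST-HSCs. Tet2-/- replicate 4 held the highest sum in both, at 7839 and 7356 CPM, and had the lowest TMM factor of its group, 0.954 and 0.985.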
